A study of Homo sapiens with 18 samples.

Results

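The 8 genes described here encode RNA-binding proteins that set which exons are joined in epithelial or in mesenchymal cells. ESRP1, ESRP2 and RBM47 are known for epithelial splicing, and QKI, RBFOX2, MBNL1, MBNL3 and PTBP1 were grouped as regulators active in mesenchymal cells or broadly expressed. They were chosen by name from the known literature, with their values in the comparisons of sodium propionate (SP) with control already seen, so those comparisons are given here as a description without a test. All 8 were found among the 61541 genes of the deposited count tables. Propionate is a short-chain fatty acid. The study grew A549 cells, a human lung adenocarcinoma line used here as wild type, with SP at 5 mM or without it, and sequenced their RNA. Each of 6 groups had 3 libraries. One table held Control 3 days, SP 3 days and SP 12 days (15425281 to 21992046 reads per library), and the other held Control 24 h, SP 3 h and SP 24 h (14187401 to 43765330 reads per library). The study asked how propionate changes the epithelial and mesenchymal programmes of these cells. The control cells were untreated, and no allele or second agent distinguished any group.

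Exons are included or skipped according to the RNA-binding proteins that sit on or beside them. ESRP1 and ESRP2 are the epithelial splicing regulatory proteins, lost when epithelial cells become mesenchymal (epithelial-to-mesenchymal transition, EMT), and they keep epithelial isoforms of genes such as CD44, FGFR2, CTNND1 and ENAH. QKI and RBFOX2 favour many of the opposite isoforms during EMT, the muscleblind proteins MBNL1 and MBNL3 act in differentiation, and PTBP1 is a widespread repressor of exons. The counts are per gene, so they give how much RNA of each regulator or target there was and not which isoform was made.

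SP 3 days and SP 12 days share the Control 3 days libraries, and SP 3 h and SP 24 h share the Control 24 h libraries. Time in culture and SP cannot be told apart at 12 days, whose control was taken at 3 days, nor at 3 h, whose control was taken at 24 h. The 3 libraries of a group are described in the study as biological replicates without saying whether they were separate cultures, so p-values measure only the spread between these libraries. The tables were fitted separately, and levels set side by side across them carry no test. Where groups are said to overlap or not, the share of all genes with such a separation is not given. Those statements describe the libraries and do not mark a gene as unusual. Of 6 markers of lung epithelial lines (KRT8, KRT18, KRT19, KRT7, EPCAM and CDH1) all had reads in every library, and their summed level was 7630 to 18000 counts-per-million (CPM) in the 3- and 12-day table and 9850 to 16500 CPM in the other. The leukocyte marker CD3E had no read in any library and PTPRC at most 2, 5 endothelial markers summed to at most 2.94 CPM, and the fibroblast genes COL1A2 and DCN had at most 6 reads in any library. The fibroblast list as a whole was higher with SP, at 63.5 to 73.9 CPM after 3 days against 15.3 to 16.4 CPM in control. COL1A1 and LUM took most of it. At SP 12 days it was 36 to 65 CPM. At SP 24 h it was 62.6 to 90.6 CPM against 6.77 to 22.4 CPM in Control 24 h, which SP 3 h overlapped at 19.1 to 39 CPM. The part of this list in the results was not tested. The leukocyte list summed to 34.7 to 38 CPM at SP 3 days against 17.4 to 18.8 CPM in control, nearly all of it CD14. SP 12 days overlapped that control at 13.6 to 26.8 CPM. At SP 24 h the list summed to 14.8 to 17 CPM against 3.54 to 4.38 CPM in Control 24 h, which SP 3 h overlapped at 2.93 to 5.07 CPM.

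ESRP1 was the regulator with the largest difference. ESRP1 (chromosome 8, 94641074 to 94707466, plus strand, GRCh38) had 6, 3 and 3 reads in the Control 3 days libraries, 45, 57 and 57 reads after 3 days of SP, and 183, 225 and 359 reads after 12 days. In CPM these were 0.286, 0.188 and 0.177 in control, 2.74, 3.47 and 3.40 at 3 days, and 11.6, 11.2 and 15.9 at 12 days. The 3 groups did not overlap, and every SP library lay above every control library. Mean levels were 0.217 ± 0.0603, 3.20 ± 0.404 and 12.9 ± 2.60 CPM (SD, n = 3 each).

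The fitted log2 fold change of ESRP1 was 3.81 (SE 0.317) at 3 days and 5.82 (SE 0.268) at 12 days. Ordered by rise among the 17775 genes tested in this table, ESRP1 stood 174th at 3 days and 37th at 12 days. Since ESRP1 passed the filter on low counts only through its SP libraries, a difference was built into its being tested. Because the control held just 12 reads over 3 libraries, the ratio of summed reads per library size is a wide estimate: 14.4 at 3 days (95% counting interval 8.01 to 28.4) and 58.8 at 12 days (33.5 to 114). These intervals are exact binomial ones and cover counting error only. The rise thus began from a level of a few reads per library.

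**Figure D1:**
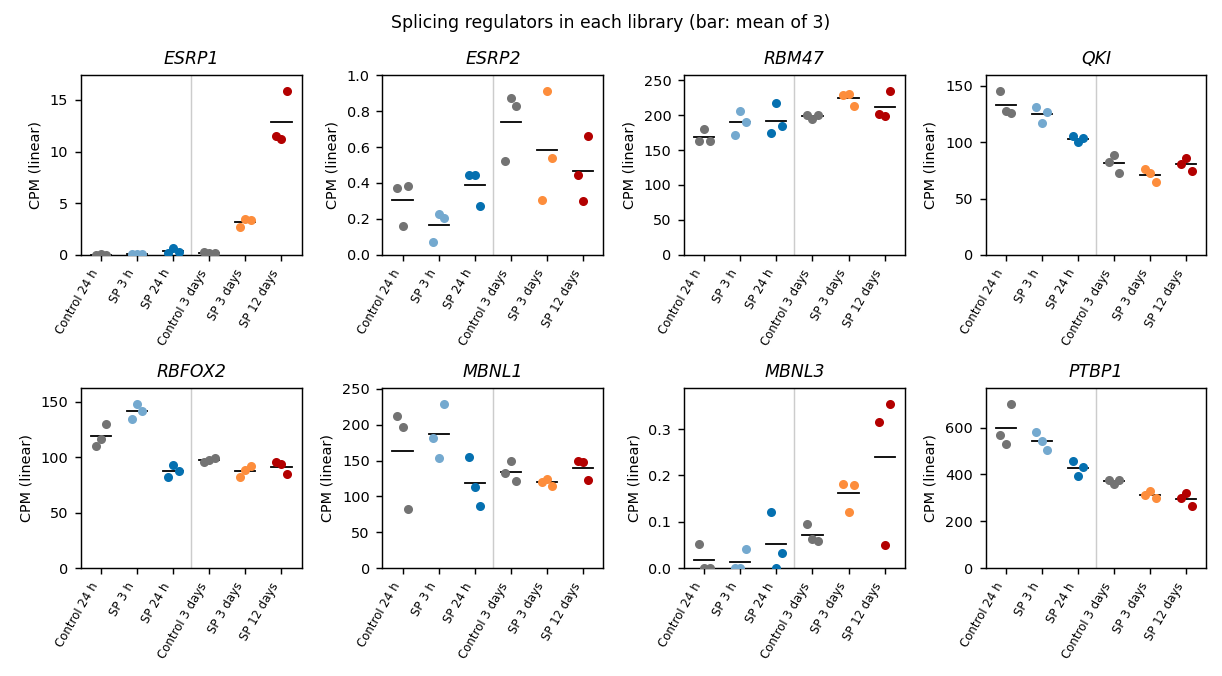
CPM (linear axis from 0) of the 8 splicing regulators in each of 18 libraries; points are libraries, bars are means of 3, and the line separates the 2 tables. ESRP1 climbs from 0.217 CPM in Control 3 days to 12.9 CPM after 12 days of SP, while RBM47, RBFOX2 and QKI keep levels of the same order in every group and ESRP2 and MBNL3 stay under 1 CPM.

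The step from SP 3 days to SP 12 days is a difference between SP libraries. The Control 3 days libraries still enter its filter, scaling and estimate of spread. SP 12 days also differs from SP 3 days by its time in culture, which cannot be told apart from the length of SP. ESRP1 rose between them by 2.01 on the log2 scale (SE 0.177, adjusted p = 1.07e-05 by edgeR's quasi-likelihood test with Benjamini-Hochberg adjustment), a 4.03-fold change, in 3 of 3 libraries against 3 of 3. Of all tested genes 4.46% rose and 3.65% fell in this comparison, and ESRP1 stood 35th by rise. It was the 1 regulator of 7 tested that was called at an adjusted p under 0.05. At the thresholds the study used (adjusted p under 0.0001 and at least 2-fold) ESRP1 also passed, against 0.152% of all genes in that direction, though not with only the 2 groups compared (adjusted p = 0.000526, edgeR), with the GC and length trends removed under the replicate block, or when a library of SP 3 days was left out. This step is the difference of the 2 changes from control with which the gene was noticed, in the same SP libraries. The test is therefore not independent of its choice, and its p-value, rank and calls are no evidence about the gene.

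ESRP1 in the short experiment was at or near 0 before SP. The Control 24 h libraries held 0, 1 and 0 reads, SP 3 h held 1, 3 and 1, and SP 24 h held 4, 28 and 9. In CPM the SP 24 h libraries had 0.162, 0.626 and 0.304, all above the highest control library at 0.0528. The ratio of summed reads was 27.5 at 24 h with an interval of 4.66 to 1110, and 4.77 at 3 h with an interval of 0.534 to 226 that includes equal levels. Between SP 24 h and SP 3 h it was 5.76 (2.28 to 18.7). ESRP1 was too low for the model fit in this table. Epithelial marker RNA was also higher at the 3 later times. By edgeR's quasi-likelihood test 5 of 6 markers were above control at an adjusted p under 0.05 at 24 h and at 3 days, and 6 of 6 at 12 days. Of all genes 16.8%, 25.2% and 26.4% were higher at those times. At 3 h 0 of 6 markers were called, with a median log2 fold change of -0.005. The part of epithelial marker RNA in the ESRP1 result was not tested. In bulk RNA, more cells with the transcript and more transcript per cell cannot be told apart.

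ESRP2, the paralog of ESRP1 (chromosome 16, 68229033 to 68238102, minus strand), showed no such pattern. It had 11, 14 and 14 reads in Control 3 days, 5, 15 and 9 at SP 3 days and 7, 6 and 15 at SP 12 days, and the groups overlapped. Its log2 fold changes against control were -0.32 (SE 0.434) and -0.61 (SE 0.436), and between SP 12 days and SP 3 days the test gave -0.29 (adjusted p = 0.754, edgeR) with a 95% interval of -1.27 to 0.68. Over the hours its reads were 7, 3 and 11 in control, 1, 7 and 5 at 3 h and 11, 20 and 8 at 24 h. Its exons share 301 bases with other genes, 227 of them with NFATC3 on the opposite strand, and the strand setting of the counting is not given in the sources used here.

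The balance between the 2 ESRP genes therefore differed between groups. Per kilobase of exon, ESRP1 made up 18.6, 18.6 and 36.7% of ESRP1 plus ESRP2 in the Control 3 days libraries. The share was 80.2 to 90.5% at SP 3 days and 96.2 to 97.6% at SP 12 days. Within a day it was 0, 0 and 26.2% in control, 17.6 to 51.6% at 3 h and 27.9 to 59.8% at 24 h, resting on few reads. Control libraries thus carried more ESRP2 than ESRP1 RNA, and SP libraries at 3 and 12 days carried more ESRP1.

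RBM47 (chromosome 4, 40423267 to 40630875, minus strand), an RNA-binding cofactor of C-to-U editing that also stabilises transcripts, was abundant in every library. It had 200.2, 195 and 201 CPM in Control 3 days, 229, 229.6 and 213 CPM at SP 3 days and 202, 198 and 235 CPM at SP 12 days. The SP 3 days libraries all lay above control and the SP 12 days libraries overlapped it. The log2 fold changes were 0.17 (SE 0.0816) and 0.09 (SE 0.0815), and against Control 24 h they were 0.17 (SE 0.115) at 3 h and 0.19 (SE 0.115) at 24 h. With the GC and length trends of the libraries removed the values were 0.05 at 3 days and -0.02 at 12 days, so the sign at 12 days depended on that choice. Neither direct comparison of SP times passed the test (log2 fold change -0.08 for 12 against 3 days, adjusted p = 0.591, and 0.02 for 24 h against 3 h, adjusted p = 0.911, edgeR).

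PTBP1 (chromosome 19, 797075 to 812327, plus strand) was the most abundant of the 8 per kilobase of exon in every group and lay wholly below control with SP at 24 h, 3 days and 12 days. It had 375, 361 and 378 CPM in Control 3 days, 311, 329 and 298 CPM at SP 3 days and 299, 321 and 266 CPM at SP 12 days. In the short experiment it had 569, 529.8 and 700.0 CPM in control, 581, 543 and 505 CPM at 3 h and 458, 395 and 434 CPM at 24 h. The SP libraries at 24 h, 3 days and 12 days were all below the lowest control library, and those at 3 h overlapped it.

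For PTBP1 the log2 fold changes were -0.25 (SE 0.0838) at 3 days, -0.33 (SE 0.0838) at 12 days, -0.14 (SE 0.123) at 3 h and -0.48 (SE 0.123) at 24 h. The exons of PTBP1 hold 61.7% G and C. Many libraries of the short experiment deviated from the mean of their table along gene GC content, with r across genes of -0.48, -0.398 and 0.217 in Control 24 h, -0.0241, 0.195 and -0.434 in SP 3 h and 0.171, 0.363 and 0.488 in SP 24 h. With that trend and the trend with length removed, the PTBP1 values were larger, at -0.71 (3 days), -0.65 (12 days), -0.43 (3 h) and -1.16 (24 h), and the median of all genes moved to -0.115 at 3 days and -0.128 at 24 h. Between SP 24 h and SP 3 h the value was -0.34 (adjusted p = 0.0792), and -0.72 with the trend removed (adjusted p = 0.00414, edgeR). One annotated pseudogene of PTBP1 could share its reads.

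RBFOX2 (chromosome 22, 35738736 to 36028824, minus strand), which promotes mesenchymal exons in many EMT models, moved between the short SP times. It had 110, 116 and 130.3 CPM in Control 24 h, 135, 148 and 142 CPM at SP 3 h and 82.5, 92.8 and 88.0 CPM at SP 24 h. All 3 libraries at 3 h lay above control and all 3 at 24 h below it. From 3 h to 24 h RBFOX2 fell by 0.69 on the log2 scale (SE 0.0993, adjusted p = 0.00206, edgeR's quasi-likelihood test with Benjamini-Hochberg adjustment), in 3 of 3 libraries against 3 of 3, where 8.4% of all tested genes fell and 11.7% rose. It was the 1 of 5 regulators tested that passed there. This fall is the difference between the changes from control at 3 h and 24 h with which the gene was noticed, in the same SP libraries. The test is therefore not independent of its choice, and its p-value and call are no evidence about the gene.

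Against their controls the log2 fold changes of RBFOX2 were 0.25 (SE 0.0989) at 3 h, -0.44 (SE 0.0991) at 24 h, -0.15 (SE 0.0789) at 3 days and -0.09 (SE 0.0786) at 12 days. With the GC and length trends removed RBFOX2 was at -0.34 at 3 days and -0.22 at 12 days. The longer experiment showed a narrower spread, with 95.5 to 99.6 CPM in control, 82.5 to 92.2 CPM at 3 days and 84.8 to 95.9 CPM at 12 days. SP 3 days lay below every control library and SP 12 days overlapped control.

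QKI (chromosome 6, 163414000 to 163578592, plus strand), an inducer of mesenchymal splicing and of circular RNAs, was lower than control at 24 h. It had 146, 128 and 126 CPM in Control 24 h, 132, 117 and 127 CPM at 3 h and 106, 101 and 104 CPM at 24 h. SP 24 h was the group that lay wholly below both others. The log2 fold change against control was -0.37 (SE 0.0949) at 24 h, and -0.24 with the GC and length trends removed. At 3 days it was -0.20 (SE 0.0962), at 12 days -0.02 (SE 0.0957), and at 3 h -0.09 (SE 0.0948). For 24 h against 3 h the test gave -0.28 (adjusted p = 0.0656, 95% interval -0.49 to -0.07 before adjustment, edgeR).

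MBNL1 (chromosome 3, 152243828 to 152465780, plus strand), which sets developmental exon choices in muscle and other tissues, had a wide spread within the groups of the short experiment. It had 213, 197 and 82.2 CPM in Control 24 h, 181, 153 and 229 CPM at SP 3 h and 156, 114 and 86.7 CPM at SP 24 h. The third control library lay below every SP library of that table. The log2 fold change at 24 h was -0.47 (SE 0.347), and -0.79 without that control library. MBNL1 exons hold 39.9% G and C, and that library's trend with GC content (r = 0.217) had the opposite sign to that of the other controls. Over 16 alternative fits, which include removal of the GC and length trends, the 24 h value ranged from -0.79 to -0.25. How much of the MBNL1 value came from this trend was not tested. In the longer experiment its values were 121 to 149 CPM in control, 115 to 124 CPM at 3 days and 123 to 149 CPM at 12 days, and the log2 fold changes were -0.17 (SE 0.0952) and 0.06 (SE 0.0948). MBNL1 shares 1590 exon bases with 2 antisense genes, 1175 of them with MBNL1-AS1.

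MBNL3 (chromosome X, 132369320 to 132489968, minus strand) was at the edge of detection, with 0 to 8 reads per library, and entered no test. Summed over 3 libraries it had 4 reads in Control 3 days, 8 at SP 3 days and 14 at SP 12 days, with ratios of 2.17 (0.582 to 9.86) and 3.22 (1.01 to 13.4) against control. One SP 12 days library held 1 read and the others 5 and 8, so the groups overlapped. The short experiment gave sums of 1, 1 and 4 reads. No difference in MBNL3 was detectable at this depth at 3 h, 24 h or 3 days.

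**Figure D2:**
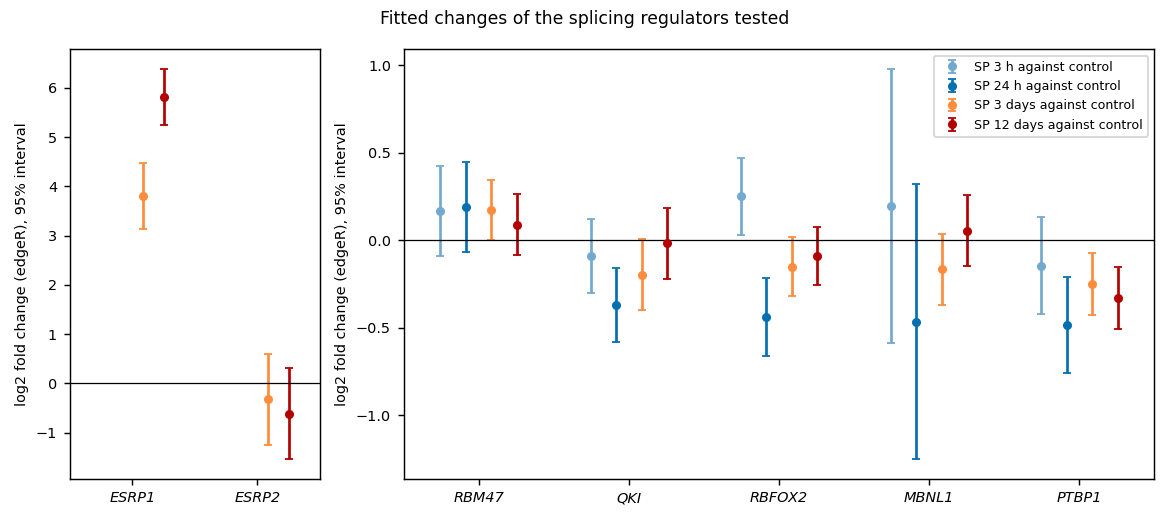
Fitted log2 fold changes of the regulators tested in each comparison with control (points) with 95% intervals (bars), ESRP1 and ESRP2 on their own axis. ESRP1 sits at 3.81 and 5.82, and the other 6 lie between -0.61 and 0.25.

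Of the 8 regulators, 7 passed the filter on low counts in the longer table and 5 in the shorter one, where the ESRP genes and MBNL3 did not. At an adjusted p under 0.05 (edgeR), 1 of 7 was higher and 1 lower than control at 3 days, where 25.2% of all genes were higher and 23.3% lower. After 12 days again 1 was higher and 1 lower, beside 26.4% and 23.4%. None of 5 was called at 3 h, beside 7.39% higher and 4.11% lower. At 24 h none was higher and 3 were lower (PTBP1, RBFOX2 and QKI), beside 16.8% higher and 12% lower. ESRP1 was the higher gene and PTBP1 the lower gene at 3 and 12 days. With the GC and length trends removed, QKI and RBFOX2 were also called lower at 3 days and RBFOX2 at 12 days, PTBP1 at 3 h when the replicate block was added, MBNL1 at 3 days likewise, and QKI was no longer called at 24 h. By the thresholds of the study ESRP1 was the 1 of 7 called at 3 and at 12 days, where 6.58% and 6.88% of genes were higher and 1.86% and 2.23% lower. These calls belong to the comparisons in which the genes were noticed and are no evidence about them.

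Levels can be ordered per kilobase of exon. In Control 3 days PTBP1 stood at 49.4 ± 1.25 CPM per kilobase, RBM47 at 23.3 ± 0.37, MBNL1 at 13.5 ± 1.42, RBFOX2 at 7.90 ± 0.166 and QKI at 4.68 ± 0.483 (SD, n = 3). ESRP2 at 0.143 ± 0.0366, ESRP1 at 0.0445 ± 0.0124 and MBNL3 at 0.00556 ± 0.00155 followed far below. These neighbours were separated by more than their spread. After 12 days of SP the order of the first 5 was kept and ESRP1, at 2.64 ± 0.533 CPM per kilobase, had moved above ESRP2 at 0.0902 ± 0.0354. At SP 24 h the 2 ESRP genes had equal means of 0.0746 CPM per kilobase. In Control 24 h and SP 3 h, RBM47 at 19.7 and 22.2 and MBNL1 at 16.4 and 18.8 CPM per kilobase were not separated beyond their spread. At its highest ESRP1 thus remained below QKI and far below RBM47.

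The genes whose level followed each regulator most closely over the 9 libraries of each table were found among 16654 genes, as a description without p. MBNL1 was followed by OSBPL8 (Pearson r = 0.966 and 0.970), PTBP1 by FANCG (0.942 and 0.946) and QKI by DUSP11 (0.934 and 0.941). For RBFOX2 the closest was PITRM1 (0.915 and 0.910) and for RBM47, after a gene without a symbol, NKPD1 (0.871 and 0.922). ESRP1 could be compared in the longer table only, where CHCHD7 came first (r = 0.996). Among the regulators themselves MBNL1 and QKI had r of 0.889 and 0.577, and RBM47 and PTBP1 had -0.634 and -0.673. These libraries share their treatment groups and their GC trends.

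The wider splicing machinery was described with lists of 128 genes outside the 8. In the 3-day comparison 13 of 118 tested genes were higher and 56 lower than control (11% and 47.5%, beside 25.2% and 23.3% of all genes, edgeR, adjusted p under 0.05), with a median log2 fold change of -0.22 against -0.02 for all genes. After 12 days 18 genes rose and 59 fell (15.3% and 50%, median -0.24 against 0.00 for all genes). With the GC and length trends removed, 16 were higher and 61 lower at 3 days, where the share of all genes moved to 21.3% higher and 33.2% lower. At 12 days they were 11 and 65, beside 22.6% and 31.9%.

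Of 34 core spliceosome genes, 18 fell and 1 rose at 3 days (52.9% and 2.94%, beside 23.3% and 25.2% of all genes), and 21 fell and 1 rose at 12 days (61.8% and 2.94%, beside 23.4% and 26.4%), with medians of -0.28 and -0.33. PRPF3, a protein of the U4/U6 particle, went from 117, 119 and 129 CPM in control to 46.5, 46.1 and 53.4 CPM at SP 3 days and 46.3, 46.3 and 47.2 CPM at SP 12 days. The groups were far apart, and the log2 fold changes were -1.32 (SE 0.0831, adjusted p = 4.64e-09) and -1.39 (SE 0.0829, adjusted p = 2.39e-09, edgeR). PRPF8, the central scaffold of the spliceosome, fell by 0.89 and 1.15, and U2AF2, which reads the polypyrimidine tract, fell by 0.93 at 3 days. SNRPA, of the U1 particle, fell by 1.07 at 12 days. SNRPD3 was the gene that rose at 3 days (0.29).

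In the hnRNP and SR families more genes fell than rose. Of all genes 25.2% rose and 23.3% fell at 3 days, and 26.4% and 23.4% at 12 days. Of 24 hnRNP genes 15 fell at each of 3 and 12 days (62.5%), while 1 and 2 rose (medians -0.32 and -0.38). HNRNPA2B1 and HNRNPM, the latter known to favour skipping of CD44 variable exons, fell by 0.62 and 0.61 at 3 days, and HNRNPA0 rose by 0.44. Of 14 SR genes 8 fell (57.1%) and none rose at either time (medians -0.27 and -0.26), with TRA2A, SRSF6 and SRSF7 falling by 0.61, 0.53 and 0.52 at 3 days. Among 9 kinases of SR proteins 2 fell (22.2%, near the share of all genes) and 1 rose at each time, DYRK1A being lower by -0.56 and -0.70.

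**Figure D3:**
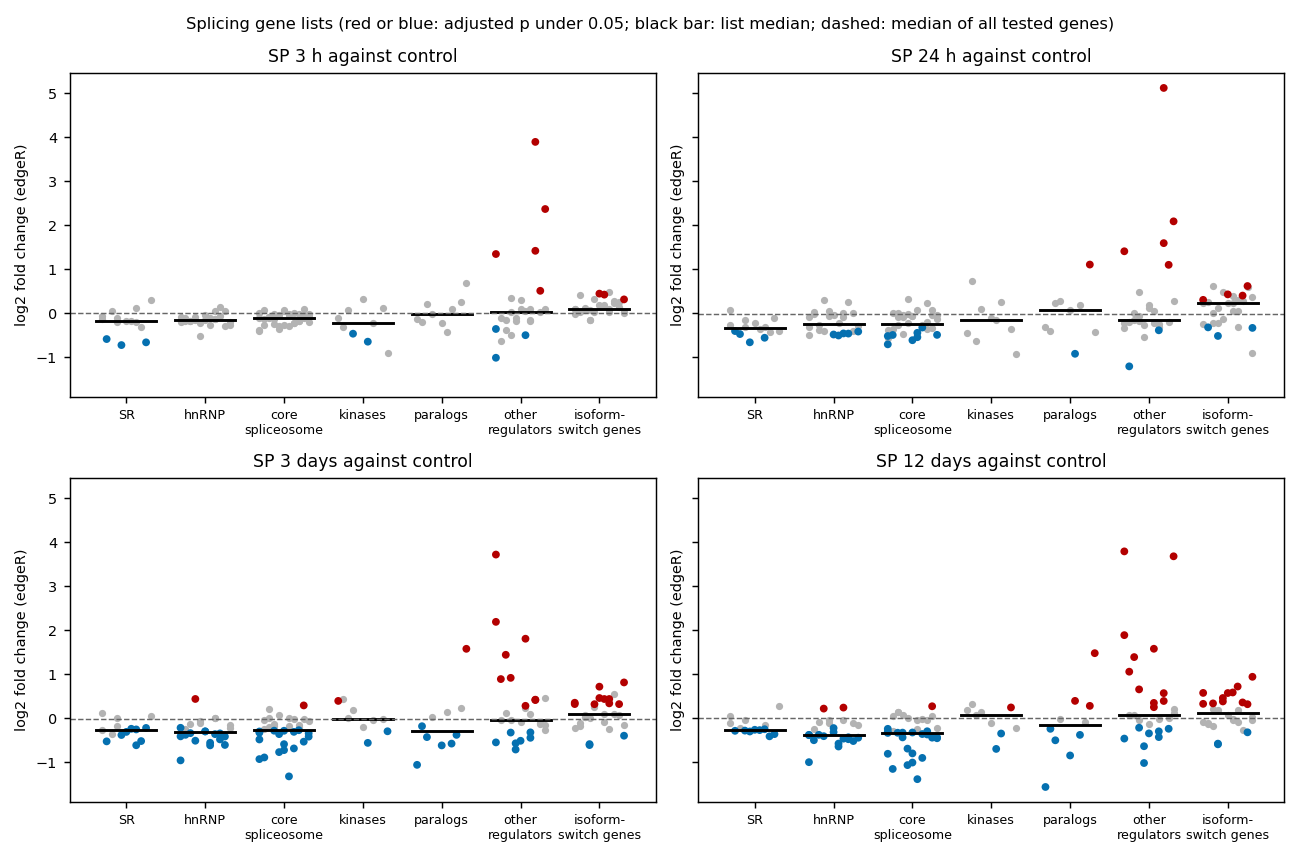
Log2 fold change of each tested gene of 7 lists in the 4 comparisons with control; red or blue points had an adjusted p under 0.05, black bars are list medians and the dashed line is the median of all tested genes. Core spliceosome, hnRNP and SR lists lie mostly below the dashed line at 3 and 12 days (medians -0.26 to -0.38), while single genes of the other-regulator list reach 3.72 to 5.12.

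The lists were counted in the same way at the short times. At 3 h 5 of 115 tested genes rose and 8 fell (4.35% and 6.96%, beside 7.39% and 4.11% of all genes), with 0 of 34 core genes and 0 of 24 hnRNP genes called. At 24 h 6 rose and 20 fell (5.22% and 17.4%, beside 16.8% and 12%), 8 of them core genes, 5 hnRNP genes and 4 SR genes. With the GC and length trends removed the falls numbered 18 at 3 h and 40 at 24 h, where the share of all genes was 8.55% higher and 9.2% lower at 3 h and 14.2% higher and 24.7% lower at 24 h. The count of falls at 24 h was 5 without SP 24 h replicate 2 or replicate 3, 11 without Control 24 h replicate 1, 12 without SP 3 h replicate 1 and 36 without Control 24 h replicate 3. U2AF2 fell by 0.71 and SNRPE by 0.61 at 24 h, and SRSF4 fell by 0.66 at 3 h.

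The list of other regulators held the largest rises of all lists, and falls as well. NOVA2, a neuronal splicing factor, had 60, 24 and 52 reads in Control 3 days, 527, 541 and 577 reads at SP 3 days and 588, 680 and 761 reads at SP 12 days. In the short experiment it had 0.106, 0.739 and 1.05 CPM in control, 8.88, 15.8 and 5.17 CPM at 3 h and 17.9, 29.5 and 22.7 CPM at 24 h. All SP libraries lay above all controls in both tables, with log2 fold changes of 3.72 (SE 0.162) at 3 days and 3.79 (SE 0.161) at 12 days (adjusted p = 1.2e-10 and 6.74e-11, edgeR). The values at 3 h and 24 h were 3.90 (SE 0.592) and 5.12 (SE 0.6), in a table where NOVA2 passed the filter on low counts through its SP libraries. NOVA1, its paralog, fell by 0.57 at 3 days and 0.64 at 12 days. SRRM3, an activator of neuronal microexons, rose by 1.42, 1.59, 2.19 and 1.89, and CELF5, of the CELF family, by 2.37, 2.09, 1.44 and 1.39, in the same order of times.

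CELF2, known for splicing in muscle, brain and T cells, had 5, 1 and 1 reads in Control 3 days, 3, 3 and 3 at SP 3 days and 33, 27 and 41 at SP 12 days, a log2 difference of 3.68 (SE 0.439) from control and of 3.21 (SE 0.421) from SP 3 days. It passed the filter on low counts only through its SP 12 days libraries, so a difference was built in and no p is given. RBMS3 fell at 24 h, 3 days and 12 days, by 1.21, 0.71 and 1.02. AKAP8, a factor that holds back EMT splicing, fell by 1.01 at 3 h, 0.55 at 3 days and 0.46 at 12 days. In all, 9 of 27 other regulators rose and 7 fell at 3 days (33.3% and 25.9%, near the 25.2% and 23.3% of all genes). At 12 days they were 11 and 8 (40.7% and 29.6%, beside 26.4% and 23.4%). Of 25 tested in the short experiment 5 rose at each time (20%), while 3 fell at 3 h (12%) and 2 at 24 h (8%). Of all genes 7.39% rose and 4.11% fell at 3 h, and 16.8% and 12% at 24 h.

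**Figure D4:**
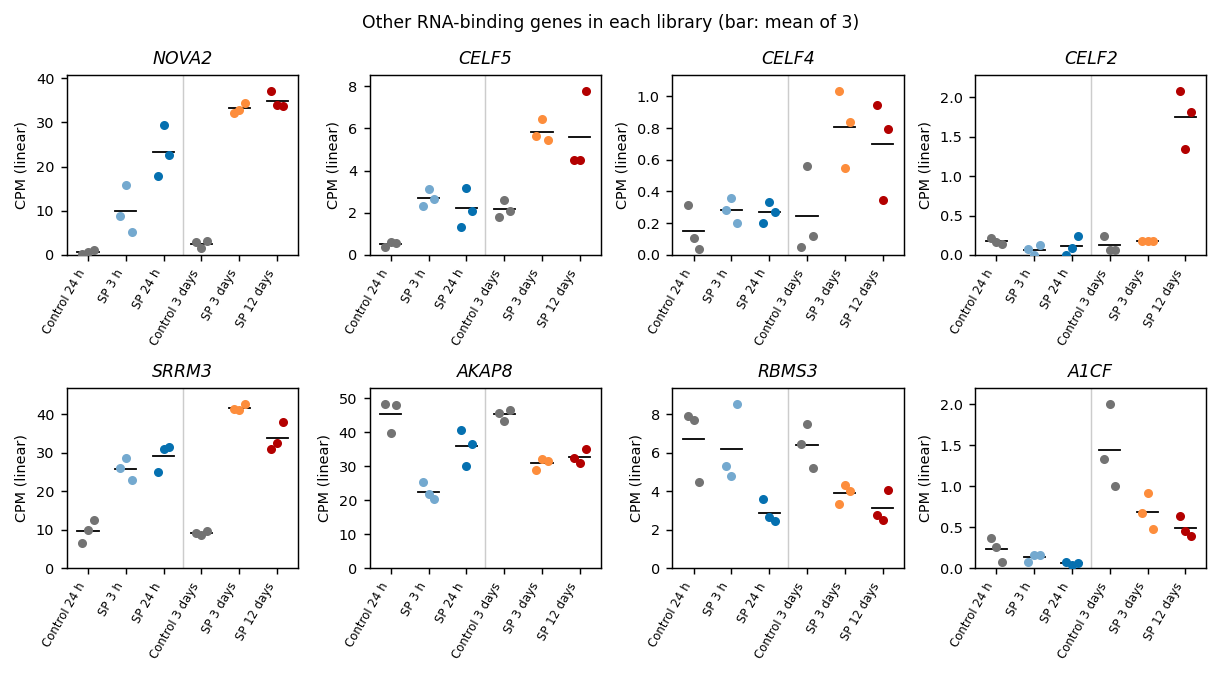
CPM (linear axis from 0) of 8 RNA-binding genes outside the 8 regulators in each library; points are libraries, bars are means of 3. NOVA2 and SRRM3 are higher with SP at all 4 times, CELF2 at SP 12 days and not at SP 3 days, and A1CF and RBMS3 lie lower with SP at 3 and 12 days.

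Close relatives of the 8 were mixed. A1CF, a relative of RBM47, had few reads (28, 32 and 17 in Control 3 days, 11, 15 and 8 at SP 3 days, 10, 9 and 9 at SP 12 days) and passed the filter mainly through control, with log2 differences of -1.06 and -1.56. KHDRBS3, a STAR-family relative of QKI, rose from 1.05, 1.56 and 1.42 CPM in control to 3.53, 5.17 and 3.22 CPM at 3 days (log2 fold change 1.58, SE 0.254, adjusted p = 9.85e-05, edgeR). PTBP2, the neuronal counterpart of PTBP1, fell by 0.50 at 12 days and 0.92 at 24 h. RBFOX3, a relative of RBFOX2, differed by table. It fell by 0.62 and 0.85 at 3 and 12 days, from 67.6 to 73.8 CPM in control, and rose by 1.11 at 24 h, from a mean of 13.0 CPM in control. Of 10 relatives tested at 3 days 1 rose and 6 fell (10% and 60%, beside 25.2% and 23.3% of all genes). At 12 days 3 rose and 5 fell (30% and 50%, beside 26.4% and 23.4%). In the short experiment 0 of 9 were called at 3 h, beside 7.39% higher and 4.11% lower. At 24 h 1 rose and 1 fell (11.1% each, beside 16.8% and 12%).

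Genes known to switch isoforms between epithelial and mesenchymal cells were read for their total RNA. Of 28 such genes 10 rose and 3 fell at 3 days (35.7% and 10.7%, beside 25.2% and 23.3% of all genes), and 11 and 3 at 12 days (39.3% and 10.7%, beside 26.4% and 23.4%). At 3 h 3 rose and 0 fell (10.7% and 0%, beside 7.39% and 4.11% of all genes). At 24 h they were 4 and 3 (14.3% and 10.7%), near the 16.8% and 12% of all genes. The medians were 0.09, 0.13, 0.10 and 0.24 in that order. CD44, whose variable exons ESRP1 keeps, went from 615, 606 and 638 CPM in control to 1057, 1076 and 1132 CPM at SP 3 days and 1181, 1151 and 1235 CPM at SP 12 days (log2 fold change 0.81, SE 0.0787, adjusted p = 5.36e-07, and 0.94, SE 0.0789, adjusted p = 9.66e-08, edgeR). ENAH, an actin regulator with an epithelial exon, rose by 0.45 and 0.43 at the short times and by 0.72 and 0.57 at the long ones. KIF13A and ARHGEF11 fell by 0.61 and 0.59 at 3 days. FGFR2 (0.55, adjusted p = 0.081) and CTNND1 (-0.08, adjusted p = 0.534, edgeR) did not pass the test at 3 days. Gene totals do not show which of these isoforms the cells made.

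Promoter windows of 300 bases (250 before to 50 after each start) were searched for CAGGTG, the E-box read by ZEB and SNAI repressors of epithelial genes, and for AACNGGTT, the motif of grainyhead-like factors, on both strands. RefSeq windows of GRCh38.p14 were at hand for MBNL1 (3), MBNL3 (4), PTBP1 (2) and RBM47 (4), and ESRP1, ESRP2, QKI and RBFOX2 had none. CAGGTG was present in 20.6% of 35116 windows of all genes and AACNGGTT in 1.73%. One RBM47 window held CAGGTG, read as its reverse complement, at -208 to -203 from the start, and no window of the 4 genes held AACNGGTT. The stretch is shown because it is the one match among the windows searched for these 4 genes. It is given 5′ to 3′ on the minus strand at chr4:40514757-40514816, with the match in capitals.
RBM47: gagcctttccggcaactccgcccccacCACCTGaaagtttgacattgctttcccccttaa
The match is a description of letters and says nothing of binding.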

How the data were processed

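RNA was measured in 18 libraries of A549 cells by paired-end sequencing of NEBNext Ultra libraries. The authors aligned reads to GRCh38 with STAR 2.7.9a, counted them per gene with featureCounts and deposited 2 tables of raw counts, not normalized; DESeq2 1.36.0 in R 4.2.1 was their test. Strand and multi-mapping settings of the counting are not given in the sources used here.

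From the deposited counts, each table was fitted with its 9 libraries in edgeR 4.0.16 (R 4.3.3): TMM factors, filterByExpr with a minimum count of 10, a robust quasi-likelihood fit on group, and Benjamini-Hochberg adjustment over all 17775 and 17377 tested genes. Calls used an adjusted p under 0.05, or the thresholds of the study (under 0.0001 and at least 2-fold). CPM use TMM-scaled library sizes. Gene names, lengths and GC content came from the GENCODE annotation of GRCh38, which held 61369 of 61541 identifiers. Genes with few reads were compared by summed reads with exact binomial 95% intervals. Depth ranged from 14187401 to 43765330 reads per library. Scripts were tested on simulated data.

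The members and lists were chosen with earlier results of these data known. All 8 regulators are named; from each other list at most the 3 largest rises and falls among called genes are named for each comparison, with their values at other times where useful. FGFR2, CTNND1 and the genes most like ESRP1 were chosen after their values were seen. Values of 2 listed genes are not reported here, though the list counts include them. Alternatives were DESeq2 1.42.0, RLE factors, no filter, only the groups compared, a replicate block, offsets for GC content and length fitted per library (splines with 5 degrees of freedom), and leaving out each library. Replicate numbers are shared across groups. Deviations from group means of same-numbered Control 24 h and SP 24 h libraries correlated at 0.499, 0.17 and 0.504. Differently numbered ones gave 0.175 (control 3 with SP 2), 0.162 (control 2 with SP 1) and otherwise -0.546 to -0.301. The numbers may thus mark pairs, but the data do not settle it. The fit on group took no account of pairing. With a replicate block, genes passing the thresholds of the study at 24 h went from 108 higher and 11 lower to 2 and 0. SP 3 h libraries of the same table did not pair by number (-0.0863, -0.0278 and -0.592 with Control 24 h, 0.0332, 0.377 and -0.285 with SP 24 h); in the 3- and 12-day table the values were -0.0101 to 0.162.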

Additional observations from a re-analysis of the deposited data

Results flagged for a closer look

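The 2 SP times of each table were compared directly. They share 1 control, taken at a single time, so a difference between them also carries time in culture, which cannot be told apart from the length of SP. The regulators were chosen with these SP libraries in view. For ESRP1 and RBFOX2 the tests are therefore not independent of that choice, and their p-values are no evidence about these genes. By edgeR's quasi-likelihood test with Benjamini-Hochberg adjustment the following genes differed, all values being log2 fold changes. Between 12 and 3 days, ESRP1 was higher by 2.01 (adjusted p = 1.07e-05) and CELF2 by 3.21, the latter tested only because its SP 12 days libraries passed the filter on low counts. Also higher at 12 days were SLK (0.42), ITGA6 (0.38) and TRA2A (0.36), and DNM2 was lower (-0.40).

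Between 24 h and 3 h, RBFOX2 was lower at -0.69 (adjusted p = 0.00206), as was TRA2A at -0.69 (adjusted p = 0.00232). TRA2A thus differed between times in both tables, in opposite directions. RBMS3 (-1.11), LRRFIP2 (-0.65), SRSF3 (-0.53), SRPK1 (-0.47), PRPF3 (-0.42), SPAG9 (-0.38), KIF13A (-0.36) and EXOC7 (-0.34) were lower at 24 h. RBFOX3 (0.86), AKAP8 (0.67), CLK3 (0.57), SRSF4 (0.55), DYRK1A (0.49) and HNRNPA0 (0.37) were higher at 24 h. Groups of 3 libraries were too small for a check of single outlying libraries.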

How the results depend on the processing

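ESRP1 kept its direction under all 16 alternatives, at 3.68 to 4.08 (3 days), 5.61 to 6.09 (12 days) and 1.81 to 2.09 (12 against 3 days, log2). The fall of RBFOX2 from 3 h to 24 h ranged from -0.81 to -0.65. All of these fits rest on libraries in which the 2 genes were noticed, so their likeness is no evidence about either gene. Genes of the fixed splicing lists higher at 12 days numbered 18, and 11 with GC and length correction, 10 with that and the replicate block, 11 with only the 2 groups compared and 11 to 18 leaving out 1 library. Genes lower at 3 h numbered 8, and 18, 22 and 5 under those same 3 settings, and 3 to 8 leaving out 1 library. Genes lower at 24 h numbered 20, and 40 and 44 under the first 2, and 5 to 36 leaving out 1 library. Of the regulators 1 was called for 24 h against 3 h, and 2 with DESeq2, with no filter and with GC and length correction with or without the block, 3 with only the 2 groups compared, and 1 to 3 leaving out 1 library; for 12 against 3 days the count was 1 to 2 (MBNL1 joined at 0.30 without SP 12 days replicate 3). The cause was not tested. With the replicate block alone, genes lower numbered 59 and 61 in the 3- and 12-day comparisons and 10 and 26 in the 3 h and 24 h ones; the block brought QKI at 3 days past the threshold and changed no other call of the 8 regulators. At 3 days PTBP1 was no longer called when replicate 1 or 3 of either group was left out. Calls at 3 days were gained by RBM47 with only the 2 groups compared, by QKI without Control 3 days replicate 3, and by RBM47, QKI, RBFOX2 and MBNL1 without SP 12 days replicate 3. MBNL1 at 24 h gained one without Control 24 h replicate 3, and PTBP1 and QKI at 24 h lost theirs without SP 24 h replicate 2 or 3; QKI at 24 h also lost it with GC and length correction and with no filter. With 3 libraries a group, ESRP2 and MBNL3 had too few reads to bound a change closely. No value with a call changed sign.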
